A study of Mus musculus with 8 samples.

Results

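The genes described here were grouped as surface markers of hematopoietic stem and progenitor cells. They are not all particular to such cells, and CD28 is best known as a costimulatory receptor of T cells. The 10 genes were chosen on the rescued-minus-knockout differences of these same arrays. Those differences are therefore given as a description, and nothing is read from a test of them. Every probe set (a group of short array probes read together) that carried one of the genes as its only symbol was used. Of the 10 genes, 9 were measured by 12 probe sets, of 12393 genes and 22626 probe sets on the array. Cd34, Cd27, Cd48, Prom1, Procr and Cd9 had 1 probe set each, and Cd28, Cd93 and Cd44 had 2 each. Ly6a had no probe set carrying its symbol alone and was not analysed here.

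The RNA came from 4 mouse hematopoietic cell lines, PICALM6A, PICALM6B, PICALM6D and PICALM84, shortened to 6A, 6B, 6D and 84 in what follows. They were made from day 14 fetal liver cells of *fit1*/*fit1-5R* embryos (strain label B6(Cg)-TyrC-2J/J), which have no functional *Picalm*, and all were immortalized with the fusion oncogene MLL-ENL, so that control and rescued cells share it. *Picalm* encodes a clathrin assembly protein that acts in endocytosis. One array per line held RNA from cells with the empty MSCVneo vector (*Picalm*-knockout, n = 4) and 1 array held RNA from cells with human *PICALM* in the same vector (*PICALM*-rescued, n = 4). In rescued cells the PICALM level may lie above the physiological one. All cells grew in IL-3 at 5 ng/ml and SCF at 50 ng/ml. The arrays were made from bulk RNA, in which fewer cells of a type and less RNA per cell cannot be told apart.

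CD34 is a sialomucin of stem, progenitor and endothelial cells, and in the mouse it separates classes of stem and myeloid progenitor cells. CD48, a member of the SLAM family, is used to tell multipotent progenitors from stem cells, and prominin 1 (CD133), encoded by Prom1, is a membrane protein of cell protrusions that marks several kinds of immature cells. CD27 and CD28 are best known as costimulatory receptors of T cells, and CD27 is also found on early progenitors. CD93 and the endothelial protein C receptor (Procr) mark immature blood cells and endothelium, CD44 binds hyaluronan, and CD9 is a tetraspanin.

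The promoters of the 3 genes whose values ranged most widely over the arrays, Prom1, Cd27 and Cd34, are shown first. Of the 9 measured genes, 7 had a window of 250 bases before the start of a transcript in RefSeq (mouse build GRCm38.p6), 8 windows in all, and Prom1 had one for each of 2 starts. Each is printed from 5′ to 3′ on the strand of the gene. Capitals mark matches on either strand to any of 8 motifs. The letters searched were GATAA for the erythroid and myeloid GATA factors, TGTGGT for the RUNX factors, and CACGTG for the E-box bound by MYC. Those of the AP-1 dimers were TGANTCA, those of the STAT proteins that follow cytokine receptors TTCNNNGAA, and those of the interferon regulatory factors (IRF) GAAANNGAA. The myeloid factor PU.1 was searched as GAGGAA, and the core promoter element named after its letters (TATA box) as TATAAA.
Prom1, chr5:44101737-44101986, minus strand: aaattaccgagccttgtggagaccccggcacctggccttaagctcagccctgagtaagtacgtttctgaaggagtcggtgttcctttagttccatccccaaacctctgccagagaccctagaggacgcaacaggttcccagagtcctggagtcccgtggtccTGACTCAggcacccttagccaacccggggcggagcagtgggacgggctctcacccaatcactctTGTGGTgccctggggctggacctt
Prom1, chr5:44094769-44095018, minus strand: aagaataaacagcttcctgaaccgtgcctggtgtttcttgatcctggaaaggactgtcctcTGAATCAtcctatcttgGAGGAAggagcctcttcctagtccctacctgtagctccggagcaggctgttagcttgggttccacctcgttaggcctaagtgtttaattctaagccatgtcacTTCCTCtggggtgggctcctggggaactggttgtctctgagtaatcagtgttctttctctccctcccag
Cd34, chr1:194938571-194938820, plus strand: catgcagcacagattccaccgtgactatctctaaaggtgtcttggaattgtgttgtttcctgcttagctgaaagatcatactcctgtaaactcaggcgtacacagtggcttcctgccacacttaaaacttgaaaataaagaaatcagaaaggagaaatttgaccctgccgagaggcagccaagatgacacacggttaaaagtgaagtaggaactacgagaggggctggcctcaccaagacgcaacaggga
Cd27, chr6:125237028-125237277, minus strand: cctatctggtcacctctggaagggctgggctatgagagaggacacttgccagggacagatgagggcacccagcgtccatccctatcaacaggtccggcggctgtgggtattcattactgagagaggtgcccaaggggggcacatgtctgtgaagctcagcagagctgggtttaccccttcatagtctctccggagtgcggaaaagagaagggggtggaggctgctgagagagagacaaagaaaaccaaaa
Both Prom1 windows held the AP-1 letters, which 6.75% of all 32851 windows held. They lay 88 bases before the start in the first window and 189 bases before it in the second, with the first window also holding the RUNX letters (24 bases before the start, in 14.05% of all windows). The second held the PU.1 letters at 172 and 69 bases before the start, which 23.3% of windows held. Among the other members, the Procr window held the AP-1 letters, that of Cd48 the RUNX letters, that of Cd9 the IRF letters (7.13% of windows) and that of Cd44 the GATA (22.6%) and PU.1 letters. The windows of Cd34 and Cd27 held no match, and no member window held the E-box (6.02% of windows), STAT (7.02%) or TATA (12.4%) letters. None of the motif matches overlapped, and a match is only a description of the letters.

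Of a list of 10 genes of hematopoietic cells in general, 9 lay above the median level of all probe sets, with Coro1a, Myb and Laptm5 the highest. Array medians lay between 7.32 and 7.35. Line 84 stood apart from the other 3 lines: 14.1% of all probe sets were called higher and 13.4% lower in it. Mean differences of the members are therefore given with and without it. No probe set was named Picalm, so the labels were not checked against the targeted gene. Of the lineage lists, 1 of 13 measured T and NK cell genes (Zap70), 0 of 12 B cell genes and 0 of 9 erythroid genes lay above the median level. The label of hematopoietic lines was therefore met by the general genes, while most genes of T, B and erythroid cells were dim on average over the 8 arrays. Single arrays lay higher. The B cell gene Cd79b stood at 8.35, 7.92 and 8.22 in knockout cells of 6A, 6D and 84, but at 5.96 in 6B. The erythroid genes Klf1 and Gata1 stood at 8.33 and 7.46 in rescued 84 cells, against 6.15 to 6.39 and 5.24 to 5.38 in the other rescued lines.

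Between knockout and rescued cells, the members split. On the log2 scale, 4 probe sets had their lower value in rescued cells in each of the 4 lines (Cd34, both of Cd28 and 1 of Cd93), 1 was higher in all 4 (Prom1) and 7 were mixed. Among all probe sets, 11.8% were lower and 12.0% higher in all 4 lines. The knockout and rescued values overlapped for all 12 probe sets when arrays were pooled over lines. The share of all probe sets that overlap in this way was not counted, so nothing is read from that. The median of the 12 mean differences was -0.06, against 0.003 over all probe sets.

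Cd34 was the member with the lowest mean difference. In knockout cells its log2 level was 10.85 in line 6A, 11.01 in 6B, 10.16 in 6D and 12.03 in 84, and in rescued cells of the same lines it was 8.93, 9.38, 9.64 and 11.09. The rescued array was the lower one in every line, but rescued 84 cells still lay above the knockout cells of the other 3 lines. The differences were -1.92, -1.62, -0.51 and -0.94, with a mean of -1.25 ± 0.64 (SD, n = 4), or 2.38-fold. Lines 6A and 6B thus held the wide gaps (3.79- and 3.08-fold) and 6D the narrow one (1.43-fold). Without line 84 the mean was -1.35.

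**Figure D1:**
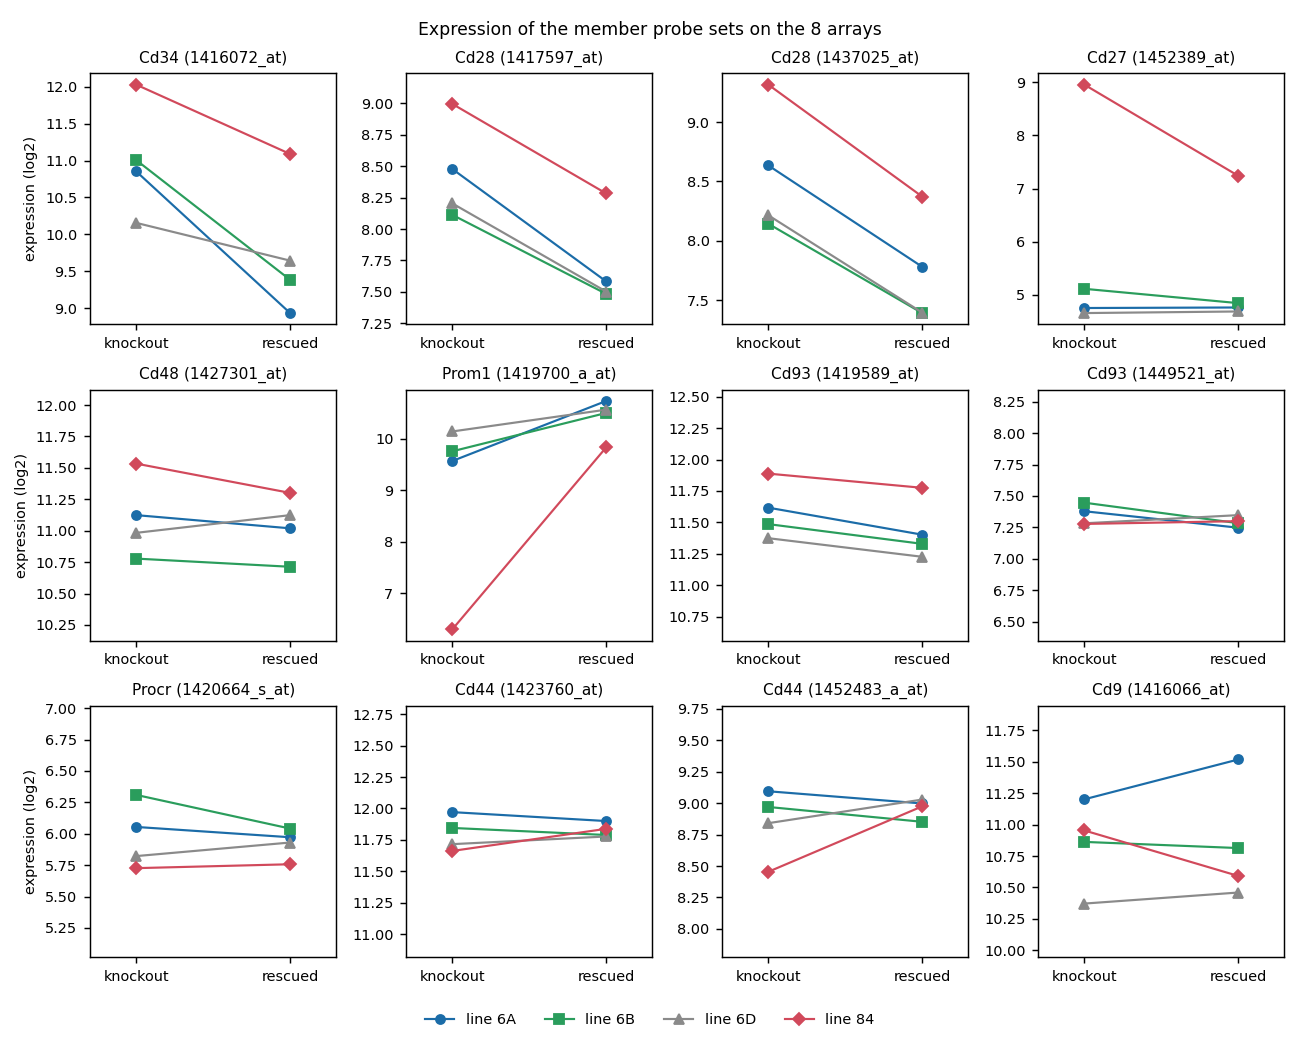
Log2 level of each of the 12 probe sets on the 8 arrays, with the knockout and the rescued array of a cell line joined by a line (each panel has its own vertical range). The lines for Cd34 and both Cd28 probe sets all slope down and those for Prom1 all slope up, with line 84 far from the other lines for Cd27 and for Prom1 in knockout cells.

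Cd28 differed by nearly the same amount in every line. On probe set 1437025_at its log2 level was 8.64, 8.15, 8.22 and 9.31 in knockout cells of 6A, 6B, 6D and 84, and 7.78, 7.39, 7.40 and 8.37 in rescued cells. Line 84 was the highest in both groups. The differences were -0.85, -0.75, -0.82 and -0.94, with a mean of -0.84 ± 0.08 (SD, n = 4), or 1.79-fold. On probe set 1417597_at the knockout values were 8.48, 8.11, 8.20 and 8.996 and the rescued values 7.58, 7.48, 7.50 and 8.28, a mean difference of -0.73 ± 0.11 (SD, n = 4). Without line 84 the means were -0.81 and -0.74. Both probe sets of the gene were lower in every rescued line. In a limma fit with the cell line as a block, 1437025_at was the only one of the 12 with an adjusted p under 0.05, beside 0.0177% of all probe sets (4, all lower in rescued cells). Since the members were chosen on this contrast, nothing is read from that count.

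Prom1 was the only member higher in the rescued cells of every line. Its log2 level was 9.57, 9.76, 10.14 and 6.29 in knockout cells of 6A, 6B, 6D and 84, and 10.74, 10.50, 10.57 and 9.83 in rescued cells. The knockout array of line 84 lay far below all others, and its rescued array lay near the knockout arrays of the other lines. The differences were 1.17, 0.75, 0.42 and 3.54, which correspond to 2.25-, 1.68-, 1.34- and 11.6-fold. Their mean was 1.47 ± 1.41 (SD, n = 4), and without line 84 it was 0.78 (1.72-fold). Cd34 and Prom1 thus differed in opposite directions in each line, and line 6D had the smallest difference for both.

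Cd27 differed in line 84. Its log2 level was 4.76, 5.12, 4.66 and 8.95 in knockout cells of 6A, 6B, 6D and 84, and 4.77, 4.85, 4.69 and 7.24 in rescued cells. In 6A, 6B and 6D it was among the dimmer probe sets of the array in both groups. The differences were 0.01, -0.27, 0.03 and -1.71, so that in line 84 the rescued cells were 3.28-fold lower. The mean was -0.49 ± 0.83 (SD, n = 4) over 4 lines and -0.08 without line 84.

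**Figure D2:**
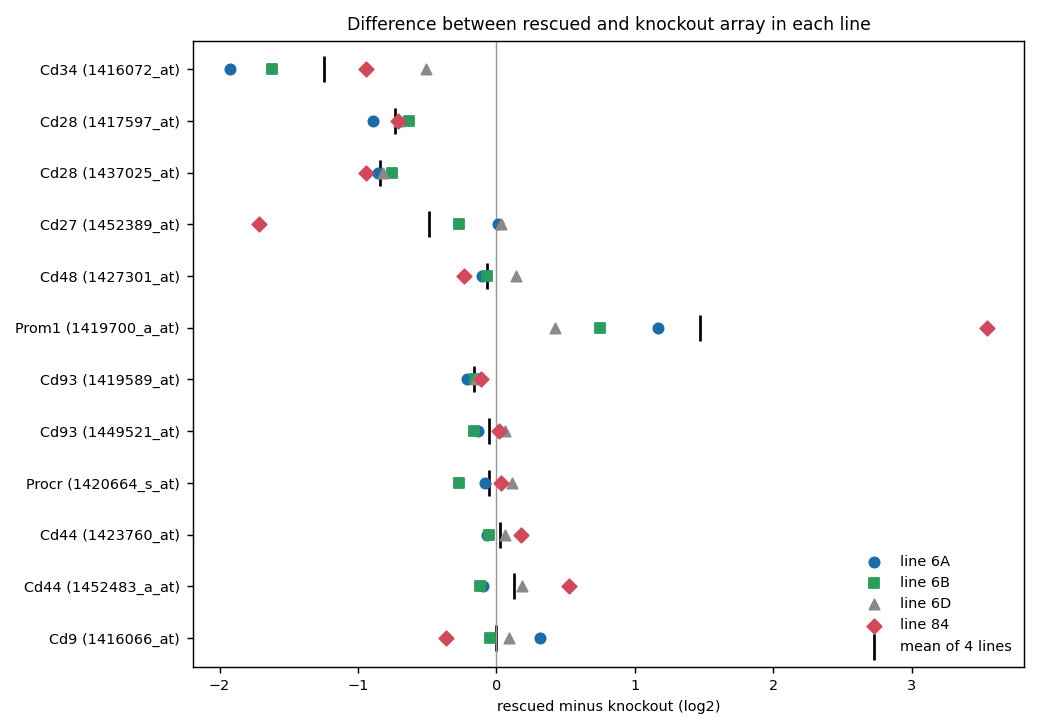
Rescued minus knockout log2 level in each of the 4 cell lines for the 12 probe sets (points), with the mean of the 4 lines as a bar. Cd28 has points close together below 0, Cd34 points below 0 from -1.92 to -0.51, and Prom1 and Cd27 have line 84 far from the other 3 lines, at 3.54 and -1.71.

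The remaining members had mean differences close to 0. The probe set 1419589_at of Cd93 stood at 11.62, 11.49, 11.37 and 11.89 in knockout cells and 11.40, 11.33, 11.23 and 11.78 in rescued cells. It was lower in every line, by -0.16 ± 0.04 (SD, n = 4), or 1.12-fold, while the dimmer 1449521_at of the same gene was mixed (-0.05 ± 0.11, SD, n = 4). For Cd48 the differences ran from -0.23 in line 84 to 0.14 in 6D, around a mean of -0.07. For Cd9, 6A had the highest difference (0.32) and 84 the lowest (-0.36), around a mean of 0.00. Procr was dim, with all 8 values between 5.73 and 6.31 and a mean difference of -0.05. The brighter probe set of Cd44 (1423760_at) kept within 11.66 and 11.97 on all 8 arrays. The other (1452483_a_at) was lower in rescued 6A and 6B cells (-0.10 and -0.12) and higher in 6D and 84 (0.19 and 0.52). Without line 84 the mean differences were -0.17 and -0.08 for the 2 probe sets of Cd93, -0.01 for Cd48, 0.12 for Cd9 and -0.08 for Procr, and -0.02 and -0.01 for the 2 of Cd44, so that those of Cd9 and Cd44 changed sign. With all 4 lines, the mean differences of these 5 genes were smaller in size than those of Cd34, Cd28, Prom1 and Cd27.

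The level of a line over its 2 arrays was not part of the rule that chose the members. Differences between lines were tested in the same fit, with both vectors of a line together. For Cd27 and Prom1 the test is not independent of the choice. Line 84 gave much of the differences they were chosen on: -1.71 and 3.54 there, against means of -0.08 and 0.78 without it. The 2 arrays of a line are not separate cultures of one condition, and the p-values measure the spread left after line and vector are taken out. An F test over the 4 lines called 5 of the 12 probe sets, from 4 genes, beside 10.8% of all probe sets. These were Cd28 (adjusted p = 0.0029 and 0.00981), Cd27 (0.0182), Cd93 on 1419589_at (0.0184) and Cd48 (0.0402). Cd9 (0.0555) and Cd34 (0.0621) lay just past the threshold. Among 6A, 6B and 6D alone, 0 of 12 passed in limma (5 at an unadjusted p under 0.05), beside 0.256% of all probe sets (2148 of 22626 unadjusted).

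Line 84 was the line with the most member calls. Against the mean of the other 3 lines, 6 of the 12 probe sets were called higher and 1 lower, beside the 14.1% and 13.4% of all probe sets. With the dimmest 40% of probe sets left out, 6 of 10 members were called, beside 5982 of all 13575. The calls among the 12 include Cd27 and Prom1, for which the test is not independent of the choice. The counts are therefore not read as a trait of the members. The 5 genes higher in line 84 were Cd27, Cd34, Cd28, Cd48 and Cd93, and Prom1 was lower. The median of the 12 differences was 0.19, against 0.02 over all probe sets.

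Cd27, the costimulatory receptor, was higher in line 84 by 3.29 ± 0.35 (SE) on the log2 scale, or 9.79-fold (adjusted p = 0.0033). The gap was 4.11 among knockout arrays and 2.47 among rescued arrays. Cd34, the sialomucin, was higher by 1.56 ± 0.27 (SE), or 2.96-fold (adjusted p = 0.0126), and the gap was of like size in knockout (1.36) and rescued (1.77) arrays. Cd28 was higher by 0.92 ± 0.06 (SE; adjusted p = 0.000646) and 0.75 ± 0.07 (SE; adjusted p = 0.0019) on its 2 probe sets. For these 3 genes line 84 was the highest line with either vector, and the call held under every alternative run that kept the probe set. Cd27 was not among those kept when the dimmest 40% of probe sets were left out.

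Cd48, the SLAM family member, was higher in line 84 by 0.46 ± 0.08 (SE), or 1.38-fold (adjusted p = 0.0122), but without line 6B the adjusted p was 0.0717. Cd93 was higher by 0.43 ± 0.05 (SE) on 1419589_at, or 1.34-fold (adjusted p = 0.004). Prom1 was lower, at -2.15 ± 0.60 (SE), or 4.44-fold (adjusted p = 0.0466). That difference was -3.53 (11.6-fold) among knockout arrays and -0.77 (1.71-fold) among rescued arrays. The Prom1 call was lost without line 6A (adjusted p = 0.102), 6B (0.0889) or 6D (0.0863), and over all its alternatives the adjusted p ran from 0.0395 to 0.107. Procr (adjusted p = 0.0552), Cd9 (0.604), both probe sets of Cd44 (0.398 and 0.221) and the dimmer one of Cd93 (0.664) did not pass.

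**Figure D3:**
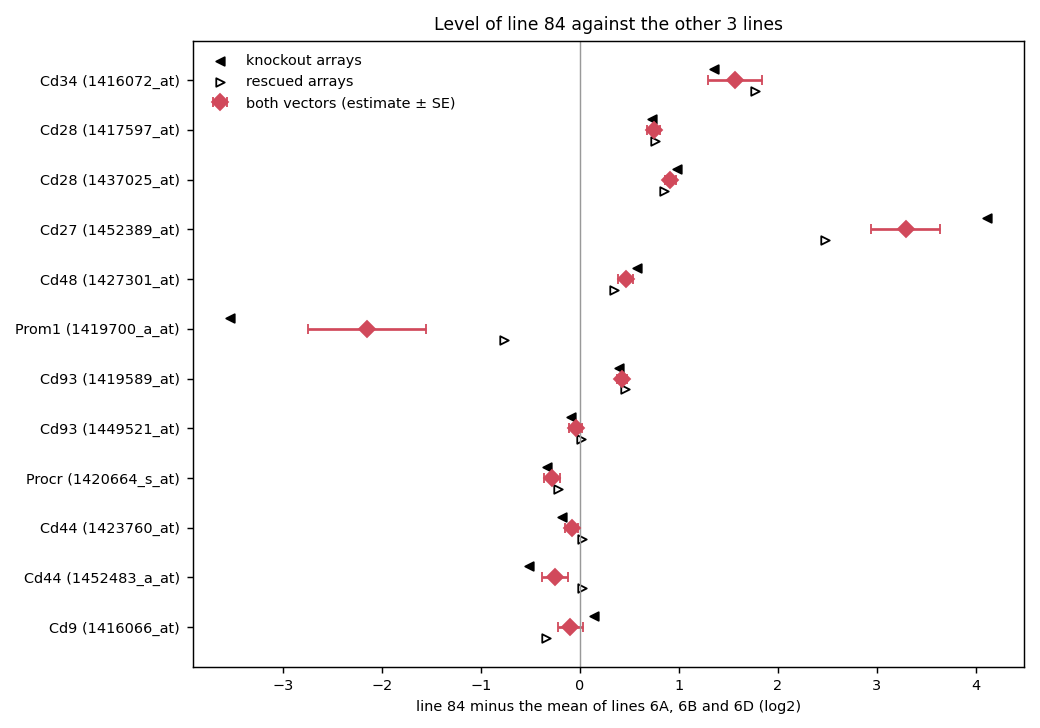
Log2 level of line 84 minus the mean of lines 6A, 6B and 6D for the 12 probe sets, as the fitted estimate with its SE over both vectors, and separately for knockout and rescued arrays. Cd27 lies highest at 3.29, Prom1 lowest at -2.15, and the knockout and rescued values of these 2 genes lie well apart.

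The other lines stood less far from each other. For line 6A, 0 of 12 probe sets were called in limma (2 at an unadjusted p under 0.05), beside 0.888% of all probe sets (3223 of 22626 unadjusted). For 6B and 6D, 1 of 12 each was called, beside 0.499% and 0.504% of all. In both cases it was Cd28 on 1437025_at, lower in 6B (-0.52, adjusted p = 0.036) and in 6D (-0.47, adjusted p = 0.0465). These comparisons include line 84 among the others, and without it the adjusted p was 0.343 and 0.379.

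Other genes of the same kinds were read from lists, with the brightest probe set of each gene. In limma, 0 of the 235 genes passed between rescued and knockout cells, and 46 had an unadjusted p under 0.05. Of all 22626 probe sets, 4 passed and 2825 had an unadjusted p under 0.05. The lists were chosen with earlier results of these data known, so nothing is read from these counts. Over the 12393 genes measured, 13.4% were above their knockout value in each line and 12.0% were below it. Of 30 other stem and progenitor surface markers measured, 6 were higher and 6 lower in all 4 lines, with a median difference of -0.02 against 0.006 over all genes. P2ry14, a receptor for UDP-sugars, had a difference of -0.72 ± 0.08 (SE), with 7.34, 7.37, 7.05 and 7.76 in knockout and 6.54, 6.46, 6.45 and 7.17 in rescued cells of 6A, 6B, 6D and 84. Its 4 rescued values lay below the knockout values of their own lines, and its adjusted p was 0.086. Muc13, a transmembrane mucin, was lower in every line (-0.66), and Alcam, an adhesion molecule, and Csf2ra, a subunit of the GM-CSF receptor, were higher in every line (0.63 and 0.59). Kit, the SCF receptor, was lower in 3 lines and higher in 1 (-0.26), and so was the cytokine receptor Flt3 (-0.61). For Csf2ra the difference was widest in line 84 (1.60), against 0.39, 0.15 and 0.21 in 6A, 6B and 6D. That of Flt3 was also widest there (-1.59), against -0.66, -0.34 and 0.15.

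Among 18 adhesion receptors, 2 were higher in all 4 lines, the integrin chains Itgam (0.72) and Itgb2 (0.48), and 1 was lower, the integrin chain Itga6 (-0.44). Itgam and Itgb2 differed by 1.39 and 1.19 in line 84, against at most 0.82 and 0.41 in the other lines. Of 20 tetraspanins, the family of Cd9, 3 were higher and 3 lower, and Tspan3 had the widest difference among these 6 (-0.28). Of 19 costimulatory receptors, their ligands and other TNF receptor family genes, the group of Cd27 and Cd28, 4 were higher and 0 lower. Tnfrsf1a, a TNF receptor, had the widest difference of these 4 (0.20). The ligands of the 2 receptors were dim and mixed: Cd70, which binds CD27, averaged a log2 level of 4.37, and Cd80 and Cd86, which bind CD28, averaged 6.36 and 6.44. Of 10 SLAM family genes, the group of Cd48, 1 was lower in every line, Cd244a (-0.60), whose product binds CD48. The difference of Cd244a was -1.14 in line 84, against -0.64, -0.38 and -0.25 in 6A, 6B and 6D. Of 18 ligands and partners of Cd44, Cd93 and Procr, 2 were higher and 2 lower, with thrombomodulin (Thbd) at -0.28. Of 8 Ly6 family genes measured, 0 moved in 1 direction in all lines, and none lay above the median level.

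Markers of mature cells also differed between the groups. Of 11 neutrophil genes, 7 were higher in rescued cells of every line and 0 lower, among them the granule proteins Camp (2.33 on the log2 scale), Ngp (2.01) and Lcn2 (1.83). The mean level of the list went from 9.06 to 11.05 in 6A, from 9.13 to 9.98 in 6B, from 9.32 to 9.74 in 6D and from 7.81 to 9.82 in 84. Line 84 was the lowest among knockout cells, as it was for Prom1, and 6D had the smallest difference, as it did for Cd34 and Prom1. The difference of the list was widest in 84 (2.02), as for Prom1. That of Cd34 was instead widest in 6A (-1.92, against -0.94 in 84). The mast cell and basophil list had 6 of 12 genes higher and 1 lower in all lines, and its mean was 6.99 and 8.02 in knockout and rescued cells of line 84, against 5.73 to 5.86 and 5.88 to 6.65 in the other lines. Of 19 interferon response genes, 0 were higher and 3 lower in every line. Their mean was 9.74 and 7.70 in knockout and rescued cells of line 84 and between 6.47 and 6.65 on the other 6 arrays. The T and NK cell list, which bears on Cd27 and Cd28, had a mean between 5.68 and 5.79 on all 8 arrays, and Cd3e, its defining gene, averaged 6.25. The endothelial list, which bears on Cd34, Cd93 and Procr, had 2 of 11 genes above the median level, and 0 were higher and 1 lower in rescued cells of every line. Of 13 monocyte and macrophage genes, 2 were higher and 2 lower, and of 8 megakaryocyte genes 0 were higher and 1 lower. The megakaryocyte mean was 7.12 and 6.61 in knockout and rescued cells of line 84. In the other lines it was 6.03 to 6.17 and 6.09 to 6.23. The part of the neutrophil, mast cell, megakaryocyte and interferon genes in the values of the members was not tested.

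**Figure D4:**
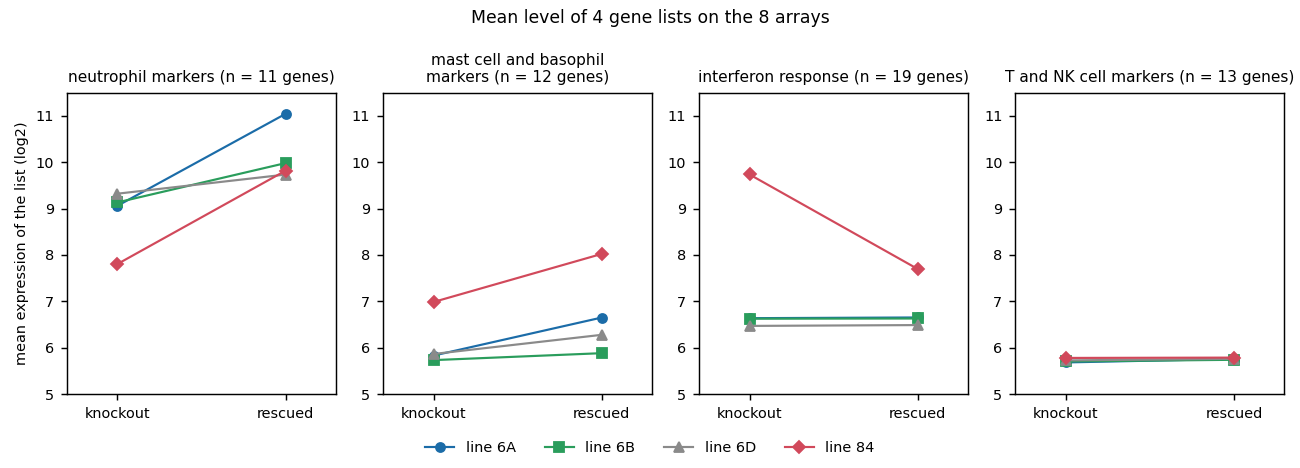
Mean log2 level of the neutrophil, mast cell and basophil, interferon response and T and NK cell lists on each of the 8 arrays, knockout and rescued arrays of a line joined. The neutrophil mean is higher in rescued cells of all 4 lines, the interferon mean of line 84 is 9.74 in knockout and 7.70 in rescued cells while the other 6 arrays lie between 6.47 and 6.65, and the T and NK cell mean stays between 5.68 and 5.79.

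The genes whose values followed each member most closely over the 8 arrays were found by Pearson's r of the log2 levels. Only probe sets with a single symbol and a mean above the median of all probe sets were searched, so dim genes could not be found. The result is a description, since arrays share lines and line 84 sets much of the spread. For Cd34 the nearest genes were Lipt2 (r = 0.994), Pacc1 (0.982) and Nampt (0.981), and for Cd28 Zfp281 (0.984), Limk1 (0.978) and Dhrs4 (0.973). For Prom1 they were Anxa3 (0.996), Phf20l1 (0.994) and Tom1 (0.994), and for Cd27 Ndufa7 (0.997), Cnpy2 (0.996) and Dnmt3b (0.996). The nearest genes of the others were Rrp1 for Cd48 (0.985), Eri1 for Cd93 (0.989), Siae for Procr (0.977), Abcg1 for Cd44 (0.957) and Ap2a2 for Cd9 (0.944). No gene was nearest to more than 1 member among those named.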

How the data were processed

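Total RNA of 8 cell cultures was hybridised to Affymetrix mouse arrays (the labels and the methods name different versions of the array, and the number of probe sets fits that of the labels). The deposited log2 values are the authors' RMA output and were used as they stand. Of 22690 probe sets, 64 controls were left out, and of the 22626 tested, 20380 had 1 symbol, 691 several and 1555 none. Depth does not apply to arrays, and their number limits the precision.

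Groups came from the sample labels. The model in limma 3.58.1 (lmFit and eBayes, R 4.3.3, statmod 1.5.0) held line and vector, with two-sided tests and Benjamini-Hochberg adjustment over every probe set tested, called at 0.05. Pairing comes from the shared cell line. Within lines, deviations from the group mean had correlations of 0.623 to 0.811. SAM, named in the methods, was not run. The code was tested on simulated data.

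Members and gene lists were chosen with earlier results of these data known. The text names all members, up to 4 genes per list with 1 direction in all 4 lines by size, up to 3 of the highest level as a check of a cell type (for some lists fewer than allowed), and up to 3 nearest patterns per member. Kit, Flt3, Cd70, Cd80, Cd86, Cd3e, Cd79b, Klf1 and Gata1 were named beyond this rule, after their values were seen. Promoter sequences are RefSeq's (GRCm38.p6). Alternatives were no block, the methods' t-test, quantile normalization, centring, leaving out the dimmest 40% of probe sets, a variance trend with robust settings, a threshold of 0.1 and leaving out each line. Leaving out lines in the comparison of single lines was added after seeing the data.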

Additional observations from a re-analysis of the deposited data

Results flagged for a closer look

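In each group of 4 arrays, the highest or lowest was set against the rest by its gap to the nearest array, as a share of the range, and judged by Dixon's critical value. Of 30 groups looked at, 7 had such an array, 4 of them among the 24 groups of member probe sets. The share of such groups over all probe sets was not counted. Cd27 and Prom1 were also chosen in part on the values of line 84, so nothing is read from these counts. All 7 were arrays of line 84. Cd27 stood out in both groups, at 8.95 in knockout cells (share 0.894) and 7.24 in rescued cells (0.939). Cd28 on 1417597_at stood out in rescued cells at 8.28 (0.876), and Prom1 in knockout cells at 6.29 (0.851), the only low value of the 7. The mean of the mast cell and basophil list stood out in knockout cells at 6.99 (0.895), and that of the interferon response list in knockout cells at 9.74 (0.949) and in rescued cells at 7.70 (0.864).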

How the results depend on the processing

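No value past the threshold changed direction under any alternative run. The rescued-minus-knockout values of the 12 probe sets moved by less than the spread between lines in all 84 comparisons, and 6 values changed sign. These were Procr (-0.05, and 0.02 without line 6B), Cd44 (0.03 and 0.12, and -0.02 and -0.01 without line 84), and Cd9 (-0.002, and 0.006 after centring, 0.01 without 6B and 0.12 without 84). The count of calls moved more. For rescued against knockout cells, limma with the line as a block called 4 probe sets, 1 of them a member. Without the block it called 0 and 0 members (1074 and 3 at an unadjusted p under 0.05), and the methods' t-test called 0 and 0 after Benjamini-Hochberg adjustment (1179 and 1 unadjusted). A threshold of 0.1 gave 18 and 2, leaving out the dimmest probe sets 8 and 2, and the variance trend 32 and 2. Without any 1 line, limma called 0 to 0 probe sets and 0 to 0 members (1606 to 3234 and 4 to 5 unadjusted). The members were chosen on the rescued-minus-knockout contrast, so nothing is read from their counts.

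Over the 4 lines, the F test called 2440 probe sets, 4486 at a threshold of 0.1, 3740 with the variance trend and 58 to 1491 without 1 line, the 58 being without line 84. Members called were 5, 7 at 0.1, 6 with the variance trend and 0 to 5 without 1 line, the 0 being without line 84. Calls for line 6A (201) were 369 at 0.1, 337 with the variance trend and 66 to 198 without another line, and those for 6B (113) were 243, 220 and 21 to 224. Calls for 6D (114) were 206, 188 and 28 to 177. The member called in 6B was joined by another with the variance trend (2), and without another line 0 to 1 were called. In 6D, 0 were called after quantile normalization, 0 after centring, 2 with the variance trend and 0 to 1 without another line. For line 84, 6217 probe sets became 3482 to 3817 without another line, and 7 members became 5 to 8 over all alternatives. Why these counts moved was not tested, and leaving out a line also lowers the number of arrays.

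Of 328 values of 1 line against the others under an alternative, 23 changed sign, 0 of them for a comparison past the threshold. Without another line, line 6A ranged from -0.216 to 0.205 and from -0.117 to 0.42 on the probe sets of Cd28, from -0.164 to 0.172 for Cd48, from -0.09 to 1.056 for Prom1, from -0.11 to 0.156 and from -0.027 to 0.011 for Cd93 and from -0.012 to 0.204 for Procr. Line 6B ranged from -0.535 to 0.299 for Cd34, from -1.447 to 0.264 for Cd27, from -0.124 to 1.023 for Prom1, from -0.263 to 0.003 for Cd93, from -0.026 to 0.069 and from -0.08 to 0.086 for Cd44 and from -0.229 to 0.244 for Cd9. Line 6D ranged from -0.191 to 0.145 for Cd48, from -0.024 to 0.014 for the dimmer probe set of Cd93 and from -0.044 to 0.122 for Cd44, and line 84 from -0.326 to 0.146 for Cd9. After quantile normalization Cd93 stood at 0.004 in 6A and 0.002 in 6D, and after centring at 0.005 in 6D.

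The limits are few arrays, 1 array per line and vector, no separate cultures of a line, and a line 84 that differs from the others over much of the array. Dim probe sets such as those of Cd27 in 6A, 6B and 6D and of Procr can hide small differences.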
